A study of Sus scrofa with 6 samples.

Results

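CAPN1, CAPN2 and CAST encode the core of the calpain system in muscle. These 3 genes, out of 6765 genes with a name on the array, were read by 7 of its 23999 probe sets other than controls, all those whose symbol in the platform annotation is exactly 1 of these names. CAPN1 had 1 probe set, CAPN2 had 1 and CAST had 5. The arrays came from the longissimus dorsi, the long back muscle, of 3 Northeastern Indigenous boars and 3 Large White boars, the control breed, slaughtered at 150 days of age and raised under shared feeding and housing. Each boar gave 1 Affymetrix porcine array read from biotin-labelled cRNA of whole tissue, and the labels name the arrays of a breed as biological replicates. The labels give no further detail of genotype or treatment.

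Calpains are cysteine proteases of the cytosol that calcium switches on. CAPN1 and CAPN2 encode the large, catalytic subunits of the calpains known as mu-calpain and m-calpain, which differ in the calcium level they need and share the small subunit encoded by CAPNS1. CAST encodes calpastatin, a protein inhibitor that binds and blocks these calpains. In muscle the balance between calpains and calpastatin is known for its part in the turnover of the filament lattice and, after slaughter, in the softening of meat.

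Signal of cell type marker genes differed widely between the arrays, which bears on every comparison. All values are log2 intensities after quantile normalization unless another scale is named. Across 14399 probe sets, which are not independent replicates, Pearson's r between arrays was 0.94 to 0.96 within the Northeastern Indigenous breed. Within the Large White breed it was 0.75 to 0.92. Large White replicate 2 correlated at 0.92 to 0.95 with the Northeastern Indigenous arrays, against 0.75 and 0.88 with Large White replicates 1 and 3. The summed deposited intensity of 9 of 13 listed muscle fibre genes was 278029 to 287748 on Northeastern Indigenous arrays, against 42606, 325989 and 158276 on Large White replicates 1, 2 and 3. For 8 of 10 adipocyte genes it was 6880 to 11302 on Northeastern Indigenous arrays, against 67571, 9942 and 56376 on the same Large White arrays. Large White replicate 2 thus lay within the Northeastern Indigenous range for adipocyte genes and replicates 1 and 3 did not. For 10 of 13 leukocyte and macrophage genes the sums were 2087 to 4144 against 7742 to 21170, and for 8 of 11 fibroblast and matrix genes 27637 to 41931 against 48295 to 91200, without overlap between breeds. The breeds also parted for 2 of 5 nerve and Schwann cell genes, at 743 to 1404 against 1483 to 2134, and for 3 of 4 smooth muscle genes, at 6535 to 7186 against 3616 to 5350. They overlapped for 6 of 6 endothelial genes, at 1962 to 2811 against 2194 to 2870, and for 3 of 4 red blood cell genes, at 1731 to 10646 against 3273 to 6535. Such sums follow the brightest genes. On Large White replicate 2 the median log2 shift of the matrix genes from their Northeastern Indigenous mean was 0.38, against 0.32 on Northeastern Indigenous replicate 2. For the leukocyte and macrophage genes these shifts were 0.82 and 0.57. COL1A2, a matrix gene, read 6.42 on Large White replicate 2, below the Northeastern Indigenous arrays (7.12 to 7.74). PTPRC, of leukocytes, read 5.54, inside their range (4.66 to 6.90), and AIF1, of macrophages, read 10.32, above it (7.85 to 9.46). CKM, the muscle creatine kinase, lay between 12.78 and 15.26 on all 6 arrays. Every probe set had a deposited intensity above 0 (smallest values of the arrays 0.048 to 0.127). A reading by itself therefore does not show that a cell type was present. In whole tissue, fewer cells of a type and less RNA per cell cannot be told apart.

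**Figure D1:**
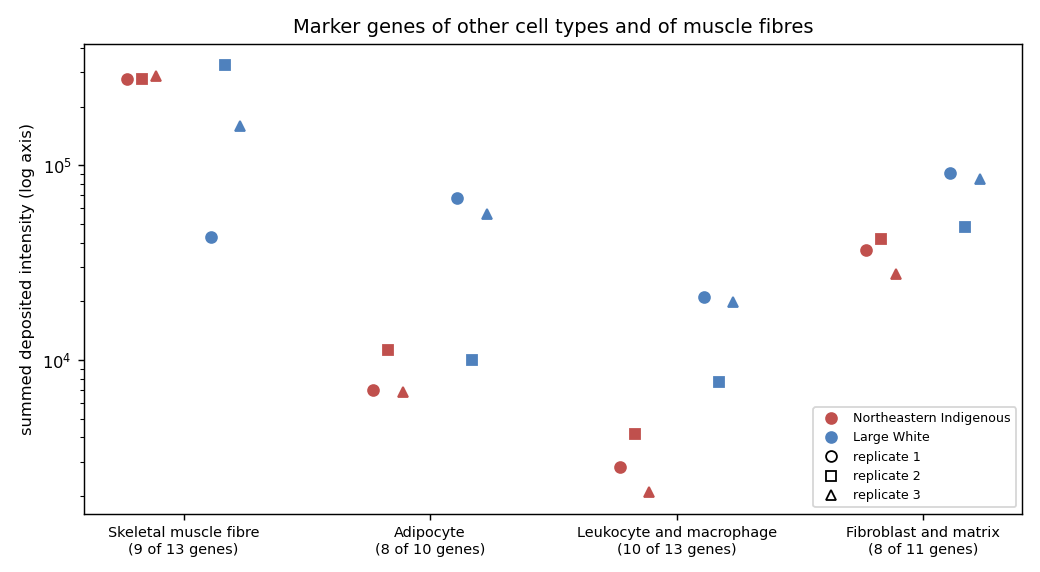
Summed deposited intensity (log axis) of the measured marker genes of muscle fibres, adipocytes, leukocytes and macrophages, and fibroblasts and matrix, with 1 point for each array, Northeastern Indigenous on the left and Large White on the right. Large White replicates 1 and 3 stand at 67571 and 56376 for adipocyte genes, while Large White replicate 2, at 9942, lies among the Northeastern Indigenous arrays.

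CAPN2 was the single member whose breeds did not overlap. It read 10.73, 11.05 and 11.32 on Northeastern Indigenous replicates 1, 2 and 3, against 11.89, 11.83 and 11.69 on Large White replicates 1, 2 and 3. In deposited intensities these were 1665, 2080 and 2583 against 3521, 3714 and 3234. All 3 Large White arrays lay above every Northeastern Indigenous array, with a gap of 0.37 log2 units between the nearest arrays of the breeds. The means were 11.03 ± 0.30 and 11.80 ± 0.10 (SD, n = 3 per breed), so the Northeastern Indigenous level was 0.587 of the Large White level. The difference, Northeastern Indigenous minus Large White, was -0.77 ± 0.24 log2 units (SE, 95% confidence interval -1.34 to -0.20). It did not pass limma's test over all probe sets (adjusted p = 0.227, unadjusted p = 0.0153). Non-overlap with lower Northeastern Indigenous values occurred in 10.9% of all tested probe sets (25.1% in either direction), and an unadjusted p under 0.05 in that direction in 9.97%, so 1 of 6 tested members with such a pattern is near what the whole array showed.

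With Large White replicate 2, the array of its breed that was not bright in adipocyte genes, as the single Large White array, the CAPN2 difference was -0.84 (limma adjusted p = 0.375, with the spread taken from the other breed). Leaving out 1 array at a time gave -0.90 to -0.61. Since the breeds did not overlap, a negative sign was nearly given in advance in both checks, and only the size can be read. The summed markers of leukocytes and macrophages, of matrix and of nerve were higher on all 3 Large White arrays than on any Northeastern Indigenous array. Those of smooth muscle were lower. Of the single genes given above, COL1A2 and PTPRC did not part the breeds. AIF1 did, at 7.85 to 9.46 on Northeastern Indigenous arrays against 10.32 to 11.90 on Large White arrays. The part of these cell types in the CAPN2 difference was not tested.

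CAPN1 values of the breeds were interleaved. It read 9.47, 8.97 and 8.35 on Northeastern Indigenous replicates 1 to 3, against 8.62, 9.63 and 8.83 on Large White replicates 1 to 3. Each breed spread over about 1 log2 unit, 1.12 in Northeastern Indigenous and 1.00 in Large White, and the ranges overlapped over most of their length. The highest array was Large White replicate 2 and the lowest Northeastern Indigenous replicate 3. The means were 8.93 ± 0.56 and 9.03 ± 0.53 (SD, n = 3 per breed). The difference was -0.10 ± 0.40 (SE, limma adjusted p = 0.895), with a 95% confidence interval of -1.05 to 0.85. The sign was not stable, since the difference was 0.19 without Northeastern Indigenous replicate 3 and 0.20 without Large White replicate 2.

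**Figure D2:**
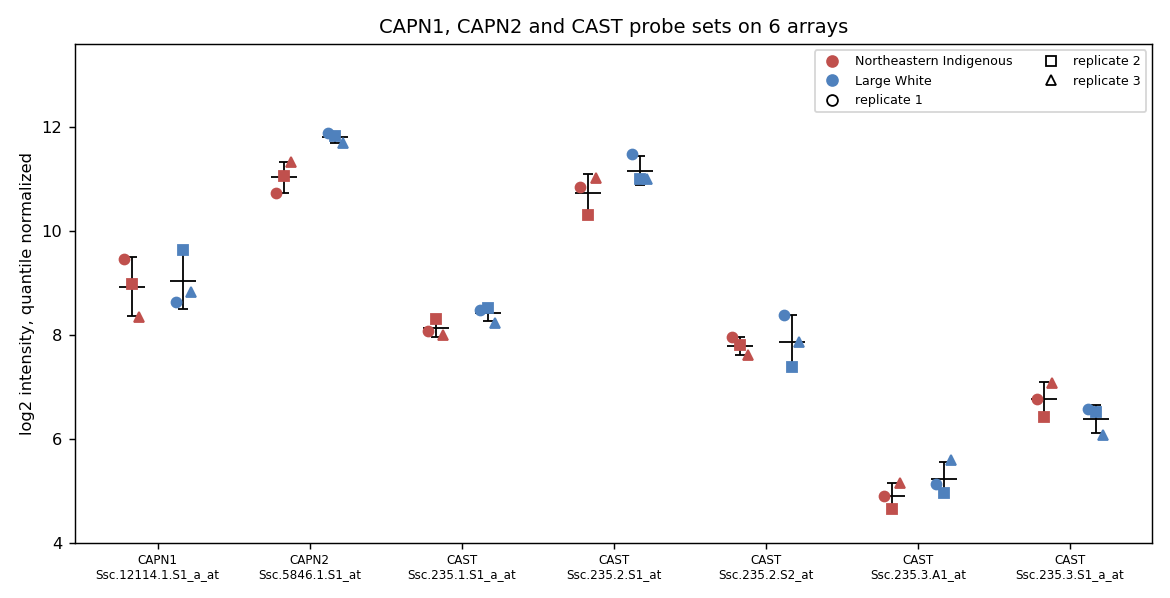
Quantile-normalized log2 intensity of the 7 member probe sets on each array, with mean and SD (n = 3 per breed), Northeastern Indigenous on the left of each pair. The breeds part without overlap for CAPN2 (11.03 ± 0.30 against 11.80 ± 0.10) and overlap for CAPN1 and for all 5 CAST probe sets. Heights of different probe sets are not comparable, since probes differ in brightness.

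CAST was read by 5 probe sets, all annotated to the same RefSeq transcript, and their differences between breeds were unlike. Their identifiers share a stem and are given here by their endings, 1.S1_a_at, 2.S1_at, 2.S2_at, 3.A1_at and 3.S1_a_at. In Affymetrix naming _a_at marks a probe set that matches several transcripts of the same gene. Of the 5, 4 had a negative difference and 1 a positive one, and in each the breeds overlapped. One, 3.A1_at, lay at the 31st percentile of brightness, under the filter at the 40th, and was not tested. None of the 4 tested passed limma.

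The brightest CAST probe set, 2.S1_at, read 10.84, 10.31 and 11.03 on Northeastern Indigenous replicates 1 to 3, against 11.49, 11.00 and 11.00 on Large White replicates 1 to 3. Northeastern Indigenous replicate 2 was the lowest array and Large White replicate 1 the highest, while the other 4 lay between 10.84 and 11.03. Its difference was -0.44 ± 0.29 (SE, 95% confidence interval -1.13 to 0.25, limma adjusted p = 0.396). Without Northeastern Indigenous replicate 2 the difference was -0.23.

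The CAST probe set 1.S1_a_at read 8.08, 8.31 and 7.99 in Northeastern Indigenous boars, against 8.49, 8.52 and 8.24 in Large White boars. Its ranges overlapped by 0.07 log2 units, through Northeastern Indigenous replicate 2 and Large White replicate 3, and its difference was -0.29 ± 0.24 (SE, limma adjusted p = 0.480). The CAST probe set 2.S2_at read 7.95, 7.80 and 7.61 in Northeastern Indigenous boars, against 8.38, 7.37 and 7.85 in Large White boars. Large White replicates 1 and 2 held its highest and lowest values, and the difference of -0.08 ± 0.32 (SE, limma adjusted p = 0.889) became 0.18 without Large White replicate 1 and 0.41 with Large White replicate 2 as the single array of its breed.

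The CAST probe set with the opposite sign was 3.S1_a_at. It read 6.77, 6.42 and 7.08 on Northeastern Indigenous replicates 1 to 3, against 6.57, 6.51 and 6.07 on Large White replicates 1 to 3. The difference was 0.37 ± 0.33 (SE, 95% confidence interval -0.40 to 1.14, limma adjusted p = 0.502). It was 0.21 without Large White replicate 3, 0.21 without Northeastern Indigenous replicate 3 and 0.24 with Large White replicate 2 as the single array of its breed. The probe set was dim, at the 49th percentile, with deposited intensities of 97.2, 87.5 and 128.0 against 108.5, 89.4 and 66.0. The untested 3.A1_at was dimmer still, with deposited intensities of 27.1 to 36.5 in Northeastern Indigenous and 32.4 to 44.3 in Large White boars and normalized means of 4.90 ± 0.25 and 5.22 ± 0.32 (SD, n = 3 per breed). Detection calls were not used here, so how far these readings stand above background is unknown.

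**Figure D3:**
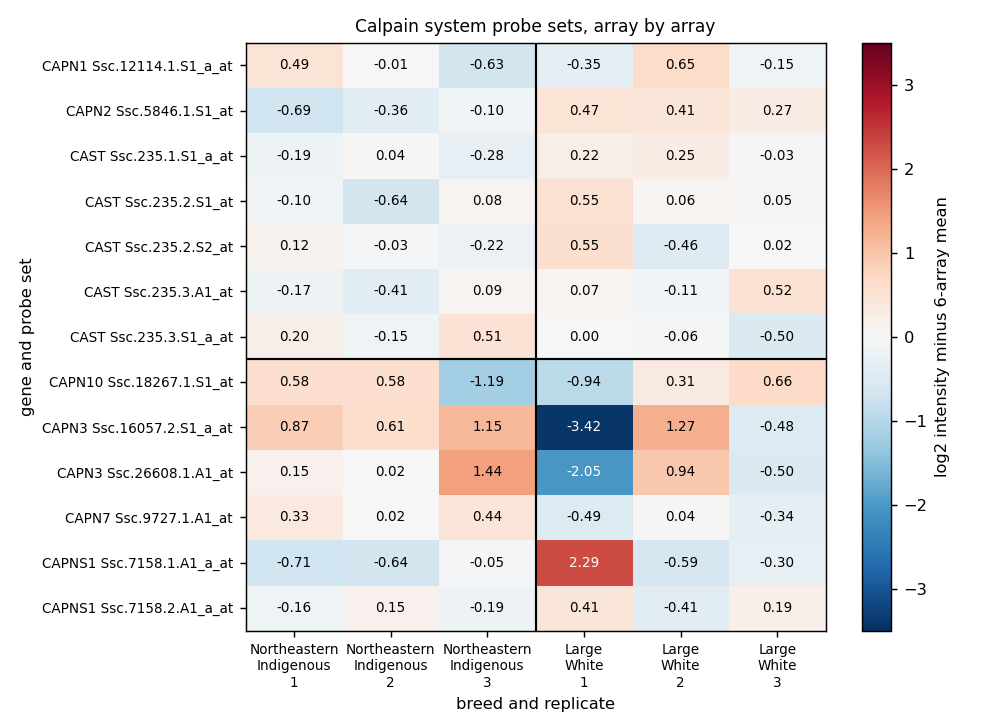
Log2 intensity of each probe set minus its own mean over the 6 arrays, for the 7 members (above the line) and the other calpain family probe sets (below it), with Northeastern Indigenous arrays in the left columns and Large White arrays in the right ones. CAPN2 is negative on all 3 Northeastern Indigenous arrays and positive on all 3 Large White arrays, the CAST rows differ from each other, and both CAPN3 rows are lowest on Large White replicate 1.

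The CAST differences disagreed in sign, though the 95% confidence interval of each tested one held both signs. The probe sets were therefore set against each other within each array, a comparison chosen after their values were seen. The log2 ratio of 3.S1_a_at over 2.S1_at was -4.07, -3.89 and -3.95 on Northeastern Indigenous replicates 1 to 3, against -4.92, -4.50 and -4.93 on Large White replicates 1 to 3. Only differences of such a ratio between arrays can be read, and its size has no meaning, since the probe sets differ in brightness. The breeds did not overlap, and the ratio was higher in Northeastern Indigenous boars by 0.81 log2 units (-3.97 ± 0.09 against -4.78 ± 0.24, SD, n = 3 per breed). The exact two-sided permutation p was 0.1, the smallest that 3 against 3 arrays can give, and 0.333 adjusted over the 10 pairs of CAST probe sets. With Large White replicate 2 as the single array of its breed the difference was 0.53.

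Of the 6 pairs with both probe sets above the filter, 2 did not overlap between breeds, both of them with 3.S1_a_at on top. The other was the ratio over 1.S1_a_at, with a difference of 0.66. Among 2489 pairs of tested probe sets of the same gene over the whole array, 17.4% did not overlap between breeds and 16.6% differed by at least as much as the CAST pair, so a split of this size between probe sets of a gene was common on these arrays.

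The log2 ratio of CAST to a calpain sets inhibitor and protease transcripts of the same array against each other, so that an unequal breed difference of the pair shows. The brightest probe sets stand for each gene here, and all 10 combinations of a CAST with a calpain probe set were computed. For CAST minus CAPN2 the ratio was 0.11, -0.75 and -0.29 on Northeastern Indigenous replicates 1 to 3, against -0.40, -0.82 and -0.69 on Large White replicates 1 to 3. The Northeastern Indigenous arrays included the highest values, and replicate 2 of that breed lay inside the Large White range. The means were -0.31 ± 0.43 and -0.64 ± 0.22 (SD, n = 3 per breed), a difference of 0.33 (exact two-sided permutation p = 0.3, and 0.6 adjusted over the 10 combinations). Single arrays set its size, since it was 0.12 without Northeastern Indigenous replicate 1 and 0.54 without Northeastern Indigenous replicate 2.

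For CAST minus CAPN1 the ratio was 1.38, 1.33 and 2.68 on Northeastern Indigenous replicates 1 to 3, against 2.87, 1.38 and 2.17 on Large White replicates 1 to 3. The breeds spread over the same range, with means of 1.80 ± 0.76 and 2.14 ± 0.74 (SD, n = 3 per breed). The difference was -0.34 (exact two-sided permutation p = 0.5, and 0.714 adjusted over the 10 combinations). It was 0.019 without Large White replicate 1, so its sign was not settled.

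**Figure D4:**
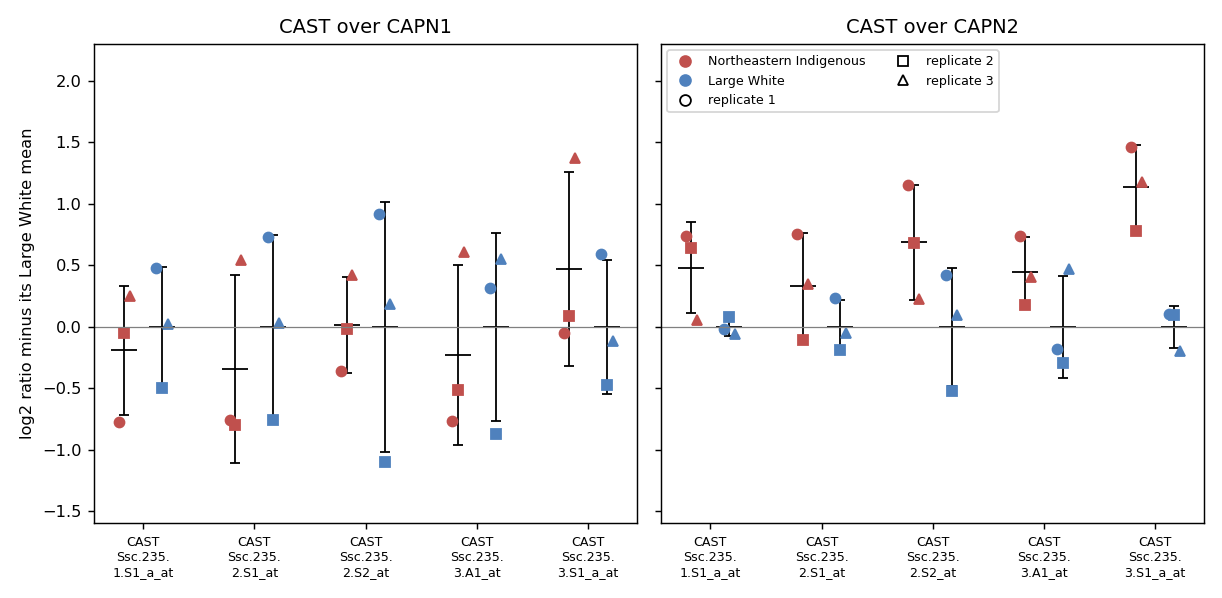
Log2 ratio of each CAST probe set over CAPN1 (left panel) and CAPN2 (right panel) on each array, shown relative to its Large White mean, with mean and SD (n = 3 per breed) and Northeastern Indigenous on the left of each pair. The Northeastern Indigenous means lie on both sides of 0 for CAPN1 and above 0 for all 5 probe sets over CAPN2, from 0.33 to 1.14.

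The choice of CAST probe set decided the size of these differences. Over CAPN2 all 5 CAST probe sets gave a positive difference, from 0.33 for the brightest to 1.14 for 3.S1_a_at. These 5 share the CAPN2 values and are not independent of each other. The ratio of 3.S1_a_at over CAPN2 was the single combination of the 10 without overlap, at -3.96, -4.63 and -4.24 in Northeastern Indigenous boars against -5.31, -5.32 and -5.61 in Large White boars (exact two-sided permutation p = 0.1, and 0.6 adjusted over the 10). With the mean of the 5 CAST probe sets the ratio over CAPN2 was -3.02, -3.56 and -3.55 in Northeastern Indigenous boars, against -3.88, -4.16 and -3.94 in Large White boars, without overlap and with a difference of 0.62 (exact two-sided permutation p = 0.1). Set over every other tested probe set, the ratio gave no overlap between breeds in 18.4% of cases for 3.S1_a_at, in 24.4% for the mean of the 5 and in 28.1% for the brightest, 2.S1_at, whose own ratio over CAPN2 did overlap. Over CAPN1, 2 of the 5 CAST probe sets gave a positive and 3 a negative difference, from -0.34 to 0.47.

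Over the 6 member probe sets that passed the filter, limma called 0 at an adjusted p under 0.05, where it called 0% of all 14399 tested probe sets, and 1, CAPN2, had an unadjusted p under 0.05, as did 18.8% of all. Of the 6, 5 had a negative and 1 a positive difference. The median difference of all tested probe sets was 0.10 after quantile normalization and -0.0065 on the deposited scale. Relative to that median, CAPN2 stood at -0.87 and -0.74, and the brightest CAST probe set at -0.54 and -0.44.

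Of 15 other calpain family genes listed, 4 were on the array by symbol. Of these limma called 0 higher and 0 lower (smallest adjusted p = 0.313), as it called 0% of all tested probe sets. At an unadjusted p under 0.05 there were also 0, against 18.8% of all tested probe sets, a share at which 4 genes are too few to read. CAPN3, the calpain of skeletal muscle that binds titin, read 11.55, 11.29 and 11.83 on Northeastern Indigenous replicates 1 to 3, against 7.27, 11.95 and 10.21 on Large White replicates 1 to 3. Its order over the Large White arrays was that of the muscle fibre markers, with replicate 1 lowest, and the cause was not tested. Its difference of 1.75 ± 1.06 (SE) was 0.49 without Large White replicate 1 and -0.42 with Large White replicate 2 as the single array of its breed. Without Large White replicate 2 limma called it (2.80, adjusted p = 0.0360), as it then called 4425 probe sets in all, or 30.7%. Any fit without that array keeps only Large White replicates 1 and 3, the arrays bright in adipocyte genes (67571 and 56376) and low in muscle fibre genes (42606 and 158276). The part of tissue content in its calls was not tested.

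CAPNS1, the small subunit shared by both calpains, had a pair of probe sets that disagreed on 1 array. The one ending in 1.A1_a_at read 9.30 to 9.95 on Northeastern Indigenous arrays, against 12.29, 9.41 and 9.70 on Large White replicates 1 to 3. The one ending in 2.A1_a_at read 10.06 to 10.40 on Northeastern Indigenous arrays, against 10.66, 9.84 and 10.44 on Large White replicates 1 to 3. Large White replicate 1 was thus far above the other arrays in only 1 of them, and the differences were -0.93 ± 0.74 and -0.13 ± 0.30 (SE). CAPN7, an atypical calpain without the calcium-binding end of the classical ones, averaged 10.23 ± 0.22 in Northeastern Indigenous and 9.70 ± 0.27 in Large White boars (SD, n = 3 per breed), a difference of 0.53 ± 0.27 (SE). CAPN10, another atypical calpain, averaged 7.85 ± 1.02 and 7.87 ± 0.84 (SD, n = 3 per breed).

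Muscle proteins that calpains are known to cut were measured for 14 of 16 listed genes. None passed limma (0 higher and 0 lower), 2 of 14 had an unadjusted p under 0.05, against 18.8% of all tested probe sets, and 10 had a positive and 4 a negative difference, with a median of 1.08 against 0.10 for all tested probe sets. The 4 with the largest differences were DES, which encodes the intermediate filament desmin (2.52 ± 1.36, SE), SYNM, its partner synemin (2.27 ± 1.07), MYOM1, of the M-band (2.15 ± 1.37), and TNNT1, the slow troponin T (2.13 ± 1.28). With Large White replicate 2 as the single array of its breed these were -0.025, 0.59, -0.36 and 0.43, and the list median was -0.0063. Without Large White replicate 1 the list median was 0.15. The muscle fibre markers were lowest on that array, at a summed 42606, but 3 of the 9 (DES, TTN and TNNT3) are also in this list, and the part of fibre content in these differences was not tested. Without Large White replicate 2 limma called 5 of these 14 genes, where it called 30.7% of all probe sets. DES, SYNM and DMD (dystrophin) were higher and SPTAN1 (a spectrin) and VIM (vimentin) lower in Northeastern Indigenous boars. The Large White arrays in that fit were those low in muscle fibre genes.

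Cathepsins and other proteases of the lysosome, and the cystatins that inhibit the cysteine proteases among them, were measured for 11 of 15 listed genes. None passed limma (0 higher and 0 lower), 8 of 11 had an unadjusted p under 0.05, against 18.8% of all tested probe sets, and 2 had a positive and 9 a negative difference, with a median of -1.30. CTSH (-2.09 ± 0.76, SE), CTSK (-1.98 ± 0.79) and CTSS (-1.85 ± 0.47), cathepsins that occur in macrophages and other phagocytes or bone-resorbing cells, had the largest negative differences. CST6, a secreted cystatin, had a positive one (1.47 ± 0.38). The leukocyte and macrophage markers were higher on all 3 Large White arrays, at 7742 to 21170 against 2087 to 4144, and their part in these differences was not tested. With Large White replicate 2 as the single array of its breed CTSH, CTSK and CTSS were at -0.28, 0.013 and -0.87 and CST6 at 0.79. Without Large White replicate 2 limma called 9 of the 11, CST6 higher and 8 lower, where it called 30.7% of all probe sets. The Large White arrays in that fit were those bright in adipocyte genes.

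Caspases, the cysteine proteases of apoptosis and inflammation, were measured for 4 of 10 listed genes. None passed limma (0 higher and 0 lower), 2 of 4 had an unadjusted p under 0.05, against 18.8% of all tested probe sets, and the median difference was -0.93, with 1 positive and 3 negative. CASP1, which matures inflammatory cytokines, differed by -2.60 ± 0.44 (SE) and CASP6, an executioner caspase, by -1.61 ± 0.52, without overlap between breeds. Non-overlap in that direction occurred in 10.9% of all tested probe sets, and in either direction in 25.1%. The summed leukocyte and macrophage markers were higher on every Large White array, and their part in these differences was not tested. CASP2 and CASP8, both initiators, differed by 0.28 ± 0.47 and -0.25 ± 0.67. With Large White replicate 2 as the single array of its breed CASP1 was at -2.18 and CASP6 at -0.59. Without Large White replicate 2 limma called 3 of the 4, CASP1, CASP6 and CASP8, all lower, where it called 30.7% of all probe sets. Here too only the Large White arrays bright in adipocyte genes were kept.

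**Figure D5:**
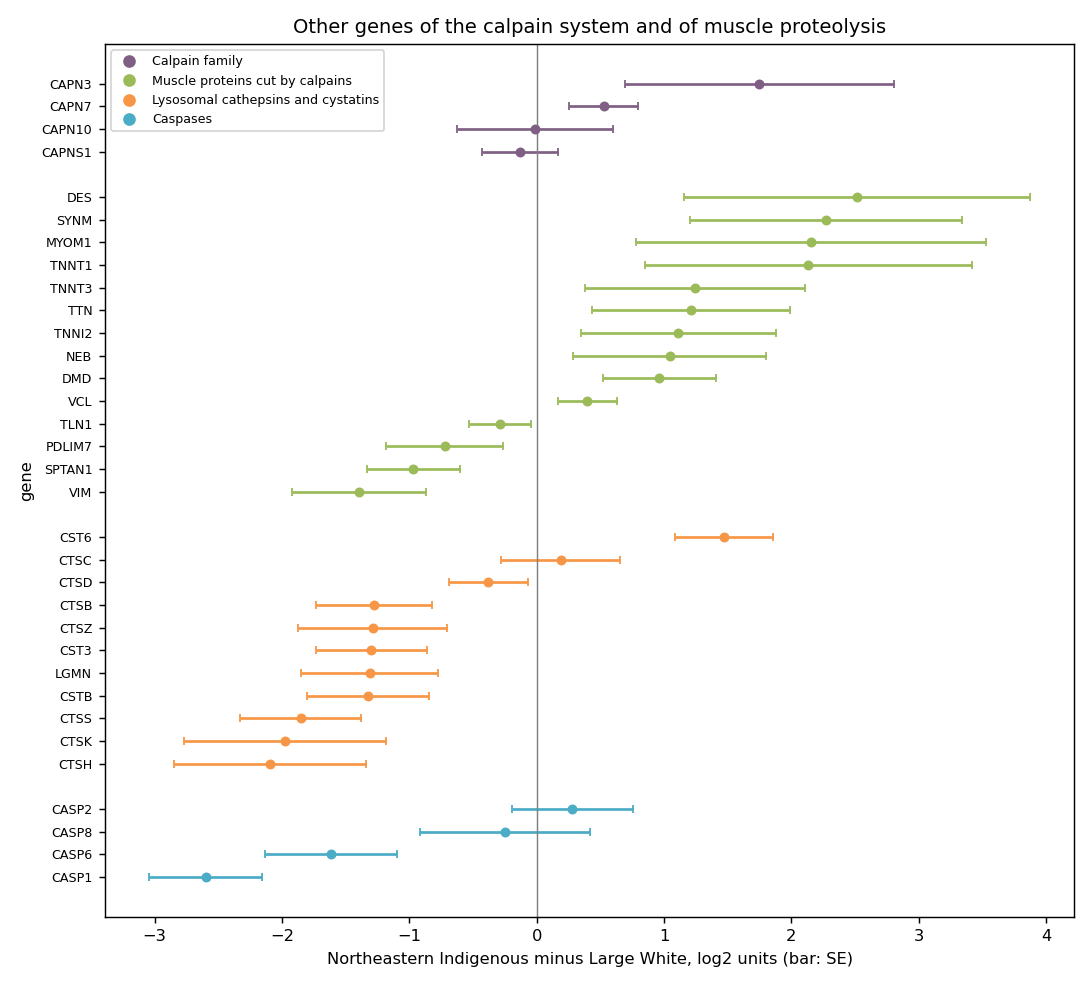
Difference between Northeastern Indigenous and Large White boars in log2 units (points, with the SE of limma's difference as bars) for the measured genes of the 4 lists. Differences of calpain substrates run from 2.52 for DES to -1.40 for VIM, those of cathepsins and cystatins from 1.47 for CST6 to -2.09 for CTSH, and none passed the adjusted threshold.

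Profiles most like those of the members were found among 5225 other named genes by the root mean square difference between mean-centred log2 profiles over the 6 arrays, which is 0 for equal profiles. A flat profile would lie at 0.42 from CAPN2, 0.35 from the brightest CAST probe set and 0.45 from CAPN1. The nearest of so many candidates are close by selection. For CAPN2 the nearest were CDIPT, U2SURP, ZNF329, SPATS2L and SLC26A11, at 0.12 to 0.14, against a median of 0.64 over all candidates. CDIPT read 8.43, 8.81 and 9.21 on Northeastern Indigenous replicates 1 to 3 and 9.51, 9.35 and 9.32 on Large White replicates 1 to 3, the same order of arrays as CAPN2. For the brightest CAST probe set they were TTC14, CSPP1, BRPF1, TMEM251 and LANCL2, at 0.061 to 0.10, against a median of 0.59. For CAPN1 they were GDPD5, PIMREG, TPD52, ASNA1 and CXCL14, at 0.14 to 0.17, against a median of 0.64. None of the 15 appeared for more than 1 member.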

How the data were processed

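The 6 arrays hold, as the authors deposited them, linear intensities with 1 value for each probe set. How they were computed and scaled is not given in the sources used here. Trimmed of 2% at either end, the array means were all from 500.12 to 500.17. The number of arrays limits the precision, and no detection calls were used. Of 24123 probe sets, 124 Affymetrix controls were left out. Names came from the platform annotation (10069 probe sets with 1 symbol, 198 with several, 13732 with none listed). The files name no genome build, so no coordinates are given, and sequences are not used here.

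Intensities were taken as log2 and quantile normalized, since array medians spanned over 0.2. A filter on the mean log2 intensity, at its 40th percentile, kept 14399 probe sets. Breed was fitted by limma (version 3.58.1, under R 4.3.3) through lmFit and a trended eBayes, with a two-sided test, 4 residual degrees of freedom, Benjamini-Hochberg adjustment over all of these and a threshold of 0.05. The fit was tested on simulated data. Ratios were compared by exact permutation over 20 splits. A listed gene is represented by its brightest probe set. All member probe sets and measured calpain family genes are named, with the 4 largest differences of each other list and the 5 nearest profiles per member. Genes named as called without Large White replicate 2 were chosen after their values were seen. Members and lists were chosen with earlier results of these data known. Same-numbered arrays deviated from their breed means with r of -0.024, -0.16 and -0.11, so the replicate numbers were not used as pairs.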

Additional observations from a re-analysis of the deposited data

How the results depend on the processing

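Alternatives were other scalings, filters, offset and variance priors, a threshold of 0.1, the replicate block, other CAST probe sets and arrays left out. The differences of CAPN2, of 1.S1_a_at, 2.S1_at and 3.S1_a_at kept their sign in all 15 alternatives and passed the threshold in none. Other filters, variance priors and the replicate block leave a difference itself unchanged, so only the remaining alternatives could change a sign. For CAPN2, whose breeds did not overlap, leaving out arrays had little room to do so. Under the 60th percentile filter 3.S1_a_at was too dim to be tested. CAPN2 ranged from -0.90 to -0.61. Its lowest limma adjusted p, 0.0574, came without Large White replicate 2, where 30.7% of all probe sets were called. The next lowest was 0.212, under the 60th percentile filter, and the highest 0.540. The count of called probe sets was 1 with median centring or at an adjusted p under 0.1, and 0 to 4425 when 1 array was left out, with 4425 without Large White replicate 2. Leaving out 1 array gave -0.36 to 0.20 for CAPN1, -0.33 to 0.18 for CAST 2.S2_at, -0.78 to 0.019 for the CAST minus CAPN1 ratio and -1.58 to -0.61 for the caspase median. With Large White replicate 2 as the single array of its breed, 2.S2_at was at 0.41, the CAST minus CAPN1 ratio at 0.41 and the cathepsin median at -0.17. The CAST minus CAPN1 ratio was 0.017 with 2.S2_at and 0.47 with 3.S1_a_at, and the caspase median was -1.61 under the 60th percentile filter, with fewer genes tested. The cause of the other changes was not tested.

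With the replicate number as a block the CAPN2 difference stayed at -0.77 (limma adjusted p = 0.338), the count of called probe sets was 0, and no call changed. The CAST minus CAPN2 ratio was positive in all 16 alternatives, from 0.12 to 1.14, but these are not independent checks. The replicate block leaves its size unchanged, and median centring gave the same 0.31 as the deposited scale. All CAST probe sets had differences above the -0.77 of CAPN2, so a change of CAST probe set could not turn the sign. With 3 arrays a breed, an exact p below 0.1 is out of reach.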
